A study of Mus musculus with 2 samples.

Results

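Mt1 and Mt2 encode the metallothioneins of mouse tissues at large, and they were followed here across tumour-infiltrating CD8+ T cells. They are 2 of the 32285 genes that the deposited matrices list. The genes were chosen by their measured values: levels that differed between the libraries and between cells with and without particular T cell genes, and correlations with other genes. Those values are therefore described below and not tested. Cells were taken as CD8 T cells when a barcode had at least 500 detected genes, under 10% of its UMIs from mitochondrial genes, and at least 1 UMI of both a Cd3 gene (Cd3d, Cd3e or Cd3g) and a Cd8 gene (Cd8a or Cd8b1). A UMI, a unique molecular identifier, marks 1 captured RNA molecule. The rule kept 6901 of 7866 control barcodes and 8164 of 10111 barcodes of the depleted library.

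Both libraries hold live CD8+ T cells sorted by flow cytometry from tumours of MC38, a mouse colon carcinoma line, 9 days after its implantation into wild-type (WT) mice. The control mice carry the treatment label PBS, although their library name contains the abbreviation Iso, and the mice of the other library, called the depleted library below, were given a-NK1.1 antibody, which removes natural killer (NK) cells. The comparison addresses what the loss of NK cells does to the states that tumour CD8 T cells take up. Each group is 1 library, and the sources used here do not say how many mice went into it, so no value below has a replicate error. Confidence intervals are exact 95% intervals that cover counting error only, and a difference between the libraries cannot be told apart from a difference between these particular preparations.

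Metallothioneins are small cytosolic proteins whose many cysteines bind zinc and copper. They buffer free zinc and react with oxidants. Their genes are classically switched on by the zinc-sensing transcription factor MTF-1, which binds short metal response elements in their promoters, and also by glucocorticoids, oxidative stress, hypoxia and cytokines that act through STAT3. In T cells, metallothionein expression accompanies activation and has been studied in dysfunctional cells of tumours. The 4 genes that divide the cells below mark known programmes of such cells: Gzmc encodes a granzyme of strongly stimulated killer cells, Havcr2 the inhibitory receptor TIM-3, Tcf7 the transcription factor TCF-1 of stem-like and memory cells, and Mki67 the proliferation antigen Ki-67.

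Both genes lie on the plus strand of chromosome 8 (GRCm38, the assembly behind mm10). In the GENCODE M21 annotation Mt2 spans 94172664 to 94173568 and Mt1 spans 94179082 to 94180327, with 5513 bases between them, and each has 3 exons. Mt3 starts at 94152607 and Mt4 at 94137197 on the same strand. The promoters are shown because the regulation named above acts there. RefSeq (GRCm38.p6) starts Mt1 at 94179089 and Mt2 at 94172618, and GENCODE starts them at 94179082 and 94172664. Only the bases before the earlier of these starts are printed, 5′ to 3′, chr8:94178839-94179081 for Mt1 and chr8:94172368-94172617 for Mt2. Capitals mark matches to the metal response element core, TGCACNC or TGCGCNC, on either strand.
Mt1 promoter: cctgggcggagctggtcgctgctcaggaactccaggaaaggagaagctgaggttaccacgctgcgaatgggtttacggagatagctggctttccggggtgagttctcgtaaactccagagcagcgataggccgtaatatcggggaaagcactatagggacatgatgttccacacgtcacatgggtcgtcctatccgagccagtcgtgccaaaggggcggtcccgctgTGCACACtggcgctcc
Mt2 promoter: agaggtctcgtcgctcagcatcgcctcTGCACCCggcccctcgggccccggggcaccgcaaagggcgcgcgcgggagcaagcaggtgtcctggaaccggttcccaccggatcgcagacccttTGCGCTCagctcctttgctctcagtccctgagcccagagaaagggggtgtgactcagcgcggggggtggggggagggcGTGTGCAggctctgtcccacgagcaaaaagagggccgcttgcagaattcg
In the full RefSeq window of 300 bases, which runs on past the start, Mt1 had 3 matches and Mt2 had 4. At least 3 matches were found in 1.97% of the 32851 RefSeq promoter windows of that length, and at least 1 match in 25.7%. The Mt2 window also had 1 match to the antioxidant response element TGACNNNGC, which 12.4% of windows contain, and the Mt1 window had none. Both windows end before the coding sequence. GENCODE places 229 untranslated bases before it in Mt1 and 184 in Mt2, and most of these were not searched. The STAT site TTCNNNGAA, found in 8.30% of windows, and the full palindromic glucocorticoid response element, found in 3 windows, had no match in the window of either gene. The hypoxia response element cores ACGTG and GCGTG gave 1 match each in Mt1, and 0 and 2 in Mt2, against 19.6% and 32.4% of all windows with a match. All motifs were searched on both strands, and neither a match nor its lack says whether a factor binds.

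The coding sequences of the 2 genes are shown for comparison. They come from the GENCODE M21 transcripts Mt1-201 and Mt2-201, and capitals mark the bases at which the 2 genes differ.
Mt1 coding sequence: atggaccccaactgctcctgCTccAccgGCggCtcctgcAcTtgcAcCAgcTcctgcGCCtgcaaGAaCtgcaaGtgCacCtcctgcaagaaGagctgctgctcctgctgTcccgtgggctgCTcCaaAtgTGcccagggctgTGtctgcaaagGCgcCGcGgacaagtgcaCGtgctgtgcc
Mt2 coding sequence: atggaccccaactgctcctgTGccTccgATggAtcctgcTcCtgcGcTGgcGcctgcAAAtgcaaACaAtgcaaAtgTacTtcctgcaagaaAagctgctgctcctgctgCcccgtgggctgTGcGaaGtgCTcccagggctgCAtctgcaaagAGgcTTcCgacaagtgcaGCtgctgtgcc
Of the 183 coding bases before the stop codon, 38 differ, an identity of 79.2%. Each sequence has 20 cysteine codons (TGC or TGT) among its 61 codons, all at the same places in both, so that 32.8% of the residues are cysteines. Across the whole transcripts, of 549 and 511 bases, the longest stretch that Mt1 and Mt2 share is 20 bases. The sources used here do not say how reads that match both genes were counted.

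The cells carried the genes of the CD8 T lineage, with a UMI of Cd3d in 98.8% and 98.9% of control and NK-depleted cells and of Cd8a in 98.1% and 97.7%. The NK cell receptor gene Ncr1 gave 18 and 3 UMIs. The populations held 106462391 and 125332343 UMIs, with medians of 11444 and 12289.5 per cell, and levels below are UMIs of a gene per 1000000 UMIs of the cells named (CPM). The libraries share 391 barcodes, and 26 of them met the rule in both. In the control population, 151 cells have a barcode that the depleted library also lists. These cells had a median of 27203 UMIs, against 11432 in the other control cells and 654 under the same barcodes in the depleted library. They are 2.19% of the control cells and held 15.3% of the control Mt1 UMIs and 23.0% of the control Mt2 UMIs. In the NK-depleted population 61 cells share a barcode and held 3.47% of Mt1 and 5.03% of Mt2 UMIs. Whether any of these cells were counted in both libraries was not tested, and the main results are given with and without them.

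Mt1 and Mt2 were both detected in a minority of CD8 T cells and at higher levels in the depleted library. Mt1 had 5822 UMIs in the control cells, 54.7 CPM (95% interval 53.3 to 56.1), and 18600 UMIs in the NK-depleted cells, 148 CPM (146 to 151). The ratio of NK-depleted to control was 2.71 (2.63 to 2.80). Mt2 had 993 UMIs, 9.33 CPM (8.76 to 9.93), in the control cells and 3836 UMIs, 30.6 CPM (29.6 to 31.6), in the NK-depleted cells, a ratio of 3.28 (3.06 to 3.52). Neither pair of counting intervals overlapped. Among 7624 genes with at least 10 CPM in 1 library, 1.09% were at least 1.5-fold higher in the depleted library, and both metallothioneins were among them, which is how they came to be described here. Without the shared barcodes the levels were 49.3 and 145 CPM for Mt1, a ratio of 2.94 (2.85 to 3.03), and 7.64 and 29.4 CPM for Mt2, a ratio of 3.85 (3.56 to 4.16).

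More cells had a metallothionein UMI in the depleted library. The median Mt1 count of the cells that had one was 2 in both libraries. Mt1 was seen in 18.6% of control cells (17.7 to 19.6) and in 34.2% of NK-depleted cells (33.2 to 35.3). When every cell was thinned to 5000 UMIs, which left out 520 control and 641 NK-depleted cells that were shallower, the shares were 9.76% and 22.2%. Mt2 was seen in 5.59% and 14.4% of cells, and in 2.05% and 6.75% after thinning. No cell type known to lack metallothioneins was sorted, so the nearest reference is the cells without a UMI of Gzmb, the granzyme of most effector CD8 T cells. Among 825 such control cells, with a median of 9583 UMIs, 5.70% had an Mt1 UMI, and among 383 such NK-depleted cells, with a median of 7721 UMIs, 9.92% did. After thinning these shares were 2.94% and 5.63%, below those of all cells in the same library.

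Expression was concentrated in few cells. The 1% of cells with most Mt1 UMIs held 35.8% of them in the control library and 26.7% in the depleted library, and the 10% with most held 89.3% and 79.8%. If the Mt1 UMIs had fallen on cells at random, 57.0% and 89.8% of cells would have had at least 1. The variance of Mt1 UMIs over cells was 18.0 and 28.7 times their mean. The intervals of levels and ratios take UMIs as independent, so they are too narrow for this spread over cells. The single highest cell had 120 Mt1 UMIs among control and 214 among NK-depleted cells, and for Mt2 the highest cells had 30 and 65. Cells with 20 or more Mt1 UMIs were 0.782% of control cells (54 cells) and 2.93% of NK-depleted cells (239 cells), and they held 31.1% and 48.6% of each library's Mt1 UMIs.

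**Figure D1:**
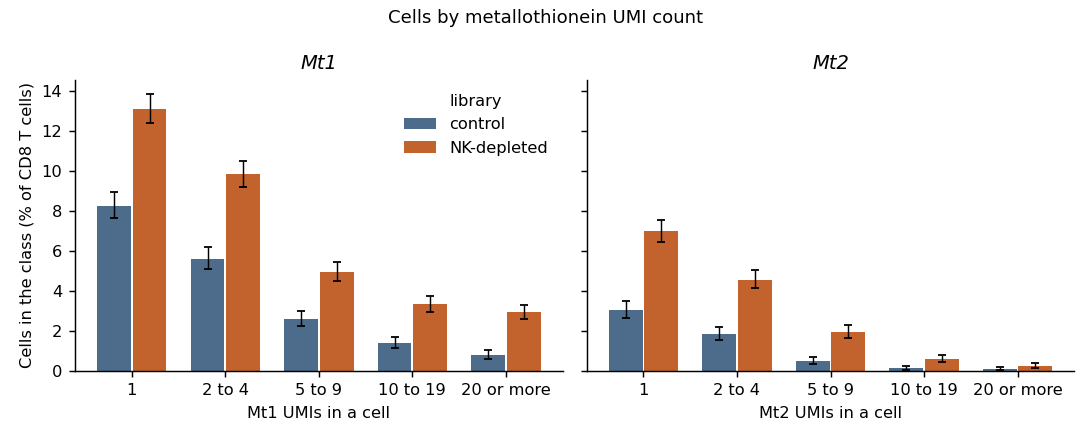
Share of CD8 T cells (%, y axis) with 1, 2 to 4, 5 to 9, 10 to 19 and 20 or more UMIs of Mt1 (left) and Mt2 (right), per library; bars are shares and whiskers exact 95% binomial intervals for counting error. The NK-depleted bar is the higher in each class, and for 20 or more Mt1 UMIs it reads 2.93% against 0.782%.

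Both genes were higher in cells with a UMI of Gzmc, Havcr2 or Mki67 and lower in cells with a UMI of Tcf7, in each library. In the control library Mt1 reached 109 CPM in cells with Gzmc and 35.7 CPM in cells without it, and in the depleted library 211 and 61.8 CPM. The ratios of cells with to cells without Gzmc were 3.06 and 3.41. Cells with Gzmc, the granzyme of strongly stimulated killer cells, were 15.1% of control cells and 45.1% of NK-depleted cells.

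Of the 4 genes, Havcr2 gave the widest split of Mt1 in the full counts. Mt1 was at 84.2 CPM in control cells with Havcr2 and 17.1 CPM in those without, and at 223 and 34.8 CPM in NK-depleted cells. These are ratios of 4.91 and 6.40, and cells with the TIM-3 gene held 86.2% and 90.7% of all Mt1 UMIs although they were 38.5% and 47.5% of cells. For Mki67, the mark of dividing cells, Mt1 was at 80.0 against 29.1 CPM in the control library and at 195 against 74.6 CPM in the depleted library, ratios of 2.75 and 2.61. Tcf7 ran the other way, with 28.9 CPM in control cells that had it and 67.4 CPM in those that did not, and with 68.8 and 187 CPM in the depleted library, ratios of 0.429 and 0.368. Without the shared barcodes the Havcr2 ratios were 5.32 and 6.26 and the Tcf7 ratios 0.357 and 0.359.

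Mt2 had the same order. Cells with Gzmc held 20.2 CPM in the control against 44.5 CPM in the depleted library, against 5.52 and 11.4 CPM in cells without it. With and without Havcr2 the Mt2 levels were 14.1 and 3.22 CPM in the control library and 46.3 and 6.62 CPM in the depleted library. With and without Tcf7 they were 5.11 and 11.4 CPM, and 14.05 and 38.6 CPM. With and without Mki67 they were 14.1 and 4.48 CPM, and 41.4 and 13.5 CPM. In all 8 of these cell sets the Mt2 level was the higher in the depleted library, and so was that of Mt1, with library ratios for Mt1 of 1.73 (cells without Gzmc) to 2.77 (cells without Tcf7) and for Mt2 of 2.05 (cells without Havcr2) to 3.38 (cells without Tcf7).

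**Figure D2:**
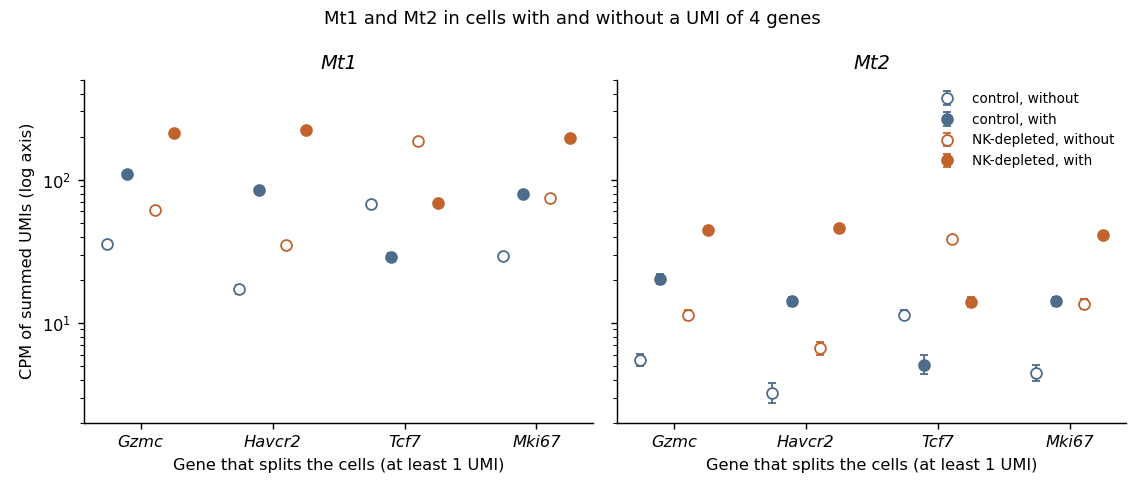
Level of Mt1 (left) and Mt2 (right) in CPM on a log axis, in cells with (filled) and without (open) at least 1 UMI of Gzmc, Havcr2, Tcf7 and Mki67; points are levels of summed UMIs of each library and whiskers exact 95% Poisson intervals, often smaller than the points. Filled points lie above open points of the same library for Gzmc, Havcr2 and Mki67 and below them for Tcf7.

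Cells with a UMI of these genes differ in depth, and depth moved with the metallothioneins. Control cells with Gzmc had a median of 22000 UMIs and those without 10558.5, and for Havcr2 the medians were 17841.5 and 9226. Mt1 was at 21.4, 23.2 and 75.1 CPM in the lowest, middle and highest tertile of control cells by UMIs, and at 36.2, 80.6 and 206 CPM in those tertiles of the NK-depleted cells. The part of depth in the splits was not tested on its own. With status kept from the full counts, Mt1 was seen after thinning in 17.7% of control cells with Havcr2 and 4.31% without. In the depleted library these shares were 34.1% and 10.5%. With and without Tcf7 they were 5.81% and 11.5%, and 12.2% and 26.9%. Reading status from thinned counts also changes which cells count as having the gene, so the next ratios cannot single out depth. With every cell thinned to 5000 UMIs and its status read from the thinned counts, the Havcr2 ratios of Mt1 were 2.90 and 2.80 in place of 4.91 and 6.40, and the Tcf7 ratios 0.219 and 0.229 in place of 0.429 and 0.368. The Tcf7 ratio of the control library was also lower without cells that had Mki67 or Top2a UMIs (0.224) and without cells that had a UMI of another cell type (0.252). For Mt2 the thinned Havcr2 ratios were 1.99 and 2.91 in place of 4.38 and 6.997, the thinned Tcf7 ratio of the depleted library 0.240 in place of 0.364, and its thinned Gzmc ratio 2.55 in place of 3.90. In the control library the Mt2 ratio for Mki67 was 1.55 in place of 3.15 without the 8% of cells with most UMIs, and that for Tcf7 0.279 in place of 0.447 without cells with a UMI of another cell type.

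In the thinned cells Mt1 was also read by the count of each gene. At 0, 1, 2 to 4 and 5 or more UMIs of Gzmc, Mt1 was at 30.6, 57.7, 133 and 149 CPM in the control library and at 66.8, 121, 198 and 258 CPM in the depleted library. Only in the depleted library are the last 2 of these Gzmc levels apart beyond their intervals, which leave out the spread over cells. Along Tcf7, control Mt1 was at 42.5, 13.2, 5.51 and 3.03 CPM, the last from a single UMI in 66 cells, and NK-depleted Mt1 was at 121, 33.6 and 20.4 CPM for 0, 1 and 2 to 4 UMIs. For Havcr2 the step lay between 0 and 1 UMI: 24.1 and 61.9 CPM in the control library, and 64.1 and 175 CPM in the depleted library. From 1 UMI of Havcr2 upward the Mt1 intervals overlapped in both libraries. Mki67 gave 27.1, 55.0, 73.7 and 69.1 CPM in the control and 73.7, 139, 182 and 150 CPM in the depleted library. There the last level was below the one before it beyond their counting intervals.

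The 4 genes together define 16 combinations, and the 2 libraries fill them differently. Mt1 was highest in cells with Gzmc, Havcr2 and Mki67 and without Tcf7, at 151 CPM in 423 control cells and 323 CPM in 1366 NK-depleted cells. This combination is 6.13% of control and 16.7% of NK-depleted cells. In cells with Tcf7 and none of the other 3 genes, a stem-like or resting profile, Mt1 was at 4.79 CPM in 1226 control cells and 17.4 CPM in 1075 NK-depleted cells. Mt2 in the same 2 combinations was at 28.6 and 70.5 CPM and at 1.55 and 3.61 CPM.

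Of the 12 combinations with at least 100 cells in each library, Mt1 was the higher in the depleted library in 11, in 10 of them with an interval of the ratio above 1. The ratios ran from 0.993 (0.817 to 1.20), in cells with Mki67 alone, to 3.63 (2.74 to 4.87), in cells with Tcf7 alone. Mt2 was the higher in all 12, in 9 with an interval above 1. These intervals cover counting error only and leave out the spread of UMIs over cells. The lowest Mt2 ratio was 1.02 (0.490 to 2.33), in cells with Gzmc alone. The highest, 11.5 (2.88 to 99.4), came from 2 control UMIs in cells with Tcf7 and Mki67. If each combination of the depleted library kept its own level but took the control library's share of UMIs, Mt1 would be at 108 CPM and Mt2 at 21.5 CPM, which are 1.98 and 2.30 times the control levels in place of 2.71 and 3.28. Without the shared barcodes these ratios were 2.07 and 2.59, and 11 combinations had 100 cells, of which Mt1 was higher in 11 and Mt2 in 11.

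**Figure D3:**
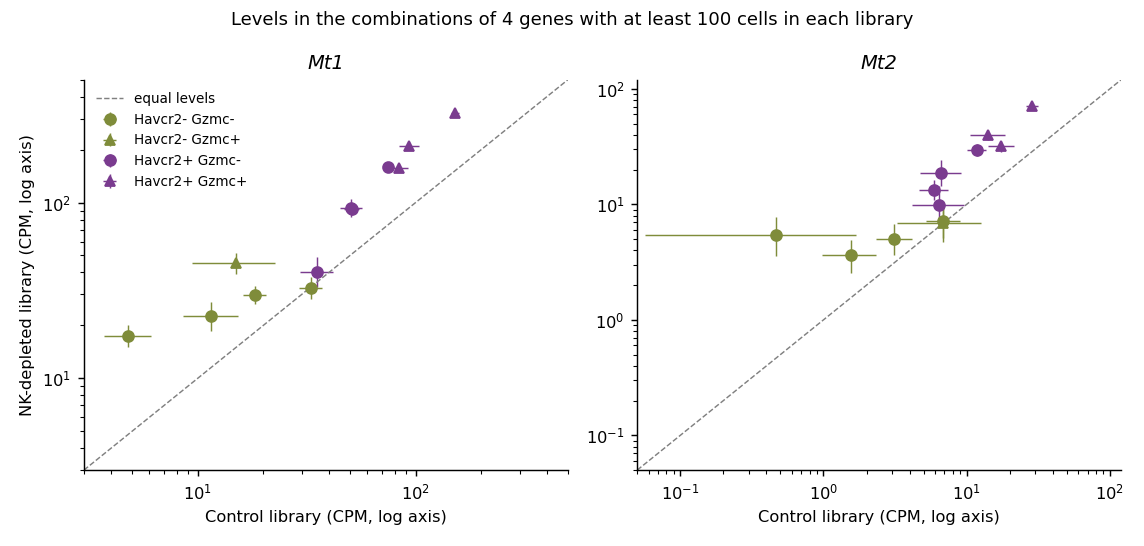
Level of Mt1 (left) and Mt2 (right) in the control library (x axis, CPM, log) against the depleted library (y axis, CPM, log) for the 12 combinations of Gzmc, Havcr2, Tcf7 and Mki67 status with at least 100 cells in each; whiskers are exact 95% Poisson intervals, colour marks Havcr2, shape marks Gzmc and the dashed line marks equal levels. The points lie on or above the line, from 4.79 to 151 CPM of Mt1 on the control axis.

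Most cells with Mt2 also had Mt1, but most cells with Mt1 had no Mt2 UMI. Of the cells with an Mt2 UMI, 85.5% of control (81.6 to 88.9) and 83.4% of NK-depleted cells (81.2 to 85.5) also had Mt1. After thinning these shares were 65.6% and 70.7%. In the full counts 25.7% and 35.0% of the cells with an Mt1 UMI had Mt2. Among cells without an Mt1 UMI, 0.997% and 3.61% had Mt2. Over cells, Pearson's r of the log-transformed counts per 10000 was 0.50 in the control and 0.64 in the depleted library, and 0.35 and 0.45 after thinning. These r describe cells of 1 library each, which share its depth and preparation. Without the shared barcodes r was 0.50 and 0.64.

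Mt1 UMIs outnumbered Mt2 UMIs in both libraries, on the scale of UMI counts not divided by transcript length. There were 5.86 Mt1 UMIs per Mt2 UMI in the control cells and 4.85 in the NK-depleted cells, so that Mt2 made up 14.6% (13.7 to 15.4) and 17.1% (16.6 to 17.6) of the sum. The number was lower in cells with more Mt1. In the depleted library it was 12.04 in cells with 1 Mt1 UMI and 4.54 in cells with 20 or more, and in the control library 9.52 and 4.79. The cells are sorted here by their own Mt1 count, which enters the number. Without the shared barcodes the numbers per library were 6.45 and 4.93.

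Of the other 2 family members, Mt3 lay near Mt2 in the control library and Mt4 was not seen. Mt3 had a UMI in 8.23% of control and 9.24% of NK-depleted cells, where Mt2 was seen in 5.59% and 14.4%. Mt3, a metallothionein best known from brain, was at 7.75 CPM in the control against 13.5 CPM in the depleted library, a ratio of 1.75 (1.61 to 1.90). By status Mt3 ran the same way as Mt1 and Mt2 within each library. Its ratios of cells with to cells without were 2.09 and 9.25 for Havcr2 (control, depleted) and 0.552 and 0.375 for Tcf7. They were 2.03 and 3.87 for Gzmc and 1.86 and 4.32 for Mki67. What differed was its ratio between the libraries, which changed direction with Havcr2, Gzmc and Mki67 but not with Tcf7. In cells without Gzmc the ratio was 0.830 (0.712 to 0.966), and in cells with Gzmc 1.58 (1.40 to 1.78). With and without Tcf7 it was 1.27 and 1.87. In cells without Havcr2, Mt3 was at 4.804 CPM in the control against 2.26 CPM in the depleted library, a ratio of 0.470 (0.372 to 0.593), while in cells with Havcr2 it was at 10.1 and 20.9 CPM, a ratio of 2.08 (1.89 to 2.29). Mt4, a metallothionein of stratified epithelium, had 0 UMIs in both libraries, which allows up to 0.0282 CPM in the control against 0.0239 CPM in the depleted library at 3 UMIs.

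Across 10390 other genes with a UMI in at least 2% of cells in both libraries, correlations with Mt1 and Mt2 over cells were weak. The median r with Mt1 was 0.013 in the control and 0.022 in the depleted library, and 21 and 89 genes reached 0.2. With Mt2, 0 and 16 genes reached 0.2. Of the 100 genes with the highest r with Mt1 in the control library, 69 were also among the 100 highest in the depleted library, and for Mt2 55 were. The log of a cell's total UMIs itself had an r with Mt1 of 0.20 and 0.29, a measure that all these genes share.

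Genes were ordered by the lowest of their 4 r values, with Mt1 and Mt2 in each library. The 12 highest were Gzmc, Dut, Prf1, Tpi1, Gzmf, Tfrc, Ldha, Cox17, Myo10, Tmem97, Pgk1 and Mt3. Gzmc, Prf1 (perforin) and Gzmf belong to the cytotoxic granules, with r with Mt1 of 0.22, 0.27 and 0.21 in the control and 0.32, 0.37 and 0.27 in the depleted library. Tpi1, Ldha and Pgk1 are glycolytic enzymes, with 0.23, 0.22 and 0.21 in the control and 0.31, 0.31 and 0.29 in the depleted library. Tfrc imports iron and Cox17 carries copper to cytochrome oxidase, with 0.20 and 0.19, and 0.23 and 0.28. Dut, which clears dUTP during DNA synthesis, had 0.22 and 0.28.

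At the other end were the nuclear RNA Malat1 and the genes Ms4a4b, H2-K1, Ifit3, Ssh2 and Btg1. Malat1 had an r with Mt1 of -0.24 in the control and -0.30 in the depleted library. Ifit3, an interferon-induced gene, had -0.19 and -0.20. The other 4 genes, among them the MHC class I gene H2-K1 and the antiproliferative gene Btg1, lay between -0.12 and -0.24 with Mt1. The lowest of the 4 r values was at most 0.17 for Gzmc and, with every cell thinned, lay between 0.032 (Mt3) and 0.098 (Gzmf) for the 12 highest genes. Without cells that had Mki67 or Top2a UMIs it lay between 0.017 (Dut) and 0.090 (Cox17). Values of this size in sparse counts are a description only.

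**Figure D4:**
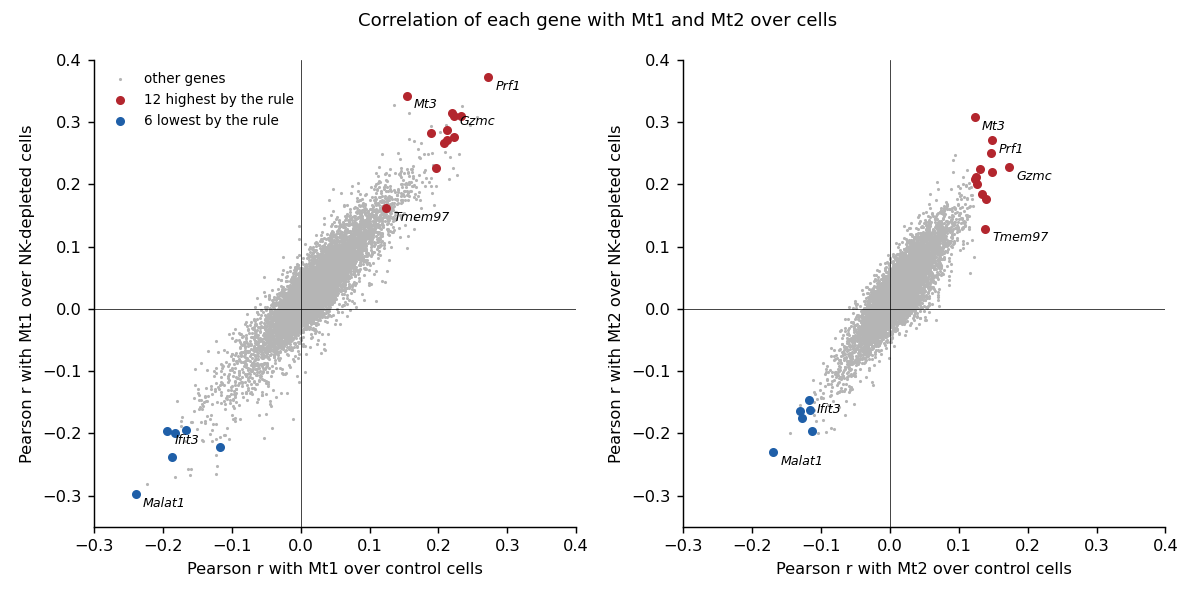
Pearson's r of each gene with Mt1 (left) and Mt2 (right) over cells, control library on the x axis and depleted library on the y axis, with no units; grey points are the 10390 genes compared, red the 12 highest and blue the 6 lowest by the lowest of 4 r values. Prf1 lies farthest to the upper right for Mt1 (0.27 and 0.37) and Malat1 farthest to the lower left (-0.24 and -0.30).

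The metal-handling lists were read against the share of all genes past 1.5-fold. Of the 25 zinc genes, which are the importers and exporters of the Slc39a and Slc30a families and Mtf1, 11 had at least 10 CPM in 1 library and 0 of them were 1.5-fold higher or lower in the depleted library, against a background of 1.09% higher and 3.02% lower. Their median log2 ratio was -0.12, beside -0.06 over all 7624 genes. Mtf1, which encodes the zinc sensor MTF-1 and is named for that role, was at 22.7 CPM in the control against 20.1 CPM in the depleted library. The importer gene Slc39a6 was at 25.3 and 29.2 CPM, and Slc39a9, Slc39a1 and Slc39a4, the 3 lowest of the 11 genes with at least 10 CPM, had ratios of 0.809, 0.847 and 0.853. None of the 5 measured copper genes and none of the 8 measured iron genes passed 1.5-fold. Counts of 0 in lists this short are near the share of all genes. The largest ratios there were those of the superoxide dismutase gene Sod1, at 118 and 152 CPM, and of Tfrc, at 75.4 and 95.2 CPM.

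The lists of known inducers of metallothioneins were counted against the same background of 1.09% higher and 3.02% lower, where 1 gene of a list is little to read. Of 8 measured glucocorticoid response genes 2 were higher, Ddit4 (39.7 and 70.8 CPM) and Sgk1 (17.5 and 26.6 CPM), and 1 was lower, the phosphatase gene Dusp1 (108 and 69.8 CPM). The glucocorticoid receptor gene Nr3c1 was at 91.7 and 67.3 CPM. Of 8 measured hypoxia genes 1 was higher, the mitophagy gene Bnip3 (19.5 and 39.1 CPM), and the list's median log2 ratio was 0.27. Of 10 measured oxidative stress genes 1 was lower, Osgin1 (24.7 and 15.6 CPM), and of 12 cytokine and STAT genes 1 was higher, the interleukin 2 receptor gene Il2ra (74.0 and 114 CPM). Stat3 was at 285 and 222 CPM and its target Socs3 at 51.8 and 37.2 CPM. None of the 6 measured heat shock genes passed 1.5-fold.

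The lists of T cell programmes were read the same way. Of 12 cytotoxic granule genes 5 were higher and 1 lower. The 5 higher genes were all granzymes. Gzma, Gzmb, Prf1, Serpinb9 and Nkg7 did not pass 1.5-fold, with ratios of 1.41, 1.34, 1.17, 1.02 and 0.841. Gzmf, Gzmc and Gzmd were at 372, 101 and 42.6 CPM in the control and 1542, 426 and 126 CPM in the depleted library, and Gzmg at 0.657 and 11.4 CPM. Of 11 measured dysfunction genes 4 were lower, Tox (74.1 and 24.7 CPM), Nr4a2, Cd38 and Lag3, and 0 were higher. Havcr2 itself was at 134 and 140 CPM. Of 10 measured stem and memory genes 1 was lower, Slamf6, and of 12 cell cycle genes 1 was higher, Top2a.

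Cells were also compared by their metallothionein content within a library. Mt1 and Mt2 UMIs were counted after thinning, and the other genes were read from the full counts of the same cells. Cells with 2 or more metallothionein UMIs were 271 of 6381 in the control and 853 of 7523 in the depleted library. Their median depth before thinning was 21514 and 20346 UMIs, against 11727 and 12082 in cells with 0, and the part of depth in what follows was not tested. Over all genes with at least 10 CPM in 1 class, 7.44% were at least 1.5-fold higher and 6.14% at least 1.5-fold lower in the control library, and 5.18% and 4.88% in the depleted library.

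Cells with metallothionein UMIs held more cytotoxic granule transcripts and fewer stem and memory transcripts. Of the measured granule genes 7 of 11 were 1.5-fold higher in the control library and 9 of 12 in the depleted library, with medians of 1.16 and 1.18 on the log2 scale. Gzmc was at 249 CPM with and 75.4 CPM without metallothionein UMIs in the control library, and at 781 and 306 CPM in the depleted library. Of 10 stem and memory genes 7 and 9 were lower, with median log2 ratios of -1.31 and -1.67. Slamf6, a surface marker of stem-like cells, was at 12.4 and 40.8 CPM in control cells with and without metallothionein UMIs, and at 7.01 and 24.5 CPM in NK-depleted cells.

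Of 12 cell cycle genes 10 and 7 were higher. Among the hypoxia genes 4 of 8 and 5 of 9 were higher, with medians of 0.63 and 0.70. Bnip3 was at 39.0 against 16.8 CPM in the control and at 70.5 against 30.4 CPM in the depleted library. Of the zinc genes 0 of 12 and 1 of 11 were higher and 0 lower, near the shares of all genes (7.44% and 5.18% higher), with median log2 ratios of -0.01 and 0.02 beside 0.02 and 0.07 over all genes. Mtf1 was at 21.7 and 22.5 CPM in control cells with and without metallothionein UMIs, and at 20.01 and 19.7 CPM in NK-depleted cells. Of the glucocorticoid response genes 0 were higher and 2 of 8 were lower in each library. Of 6 heat shock genes 2 and 3 were higher, with medians of 0.26 and 0.34. Of the oxidative stress genes 2 of 11 were higher and 1 lower in the control library (median 0.33), and 0 of 10 higher and 1 lower in the depleted library (median 0.14). Of 12 cytokine and STAT genes 1 was higher and 3 lower in the control library, and 2 higher and 2 lower in the depleted library. In the dysfunction list 1 and 3 of 11 were higher and 0 lower.

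**Figure D5:**
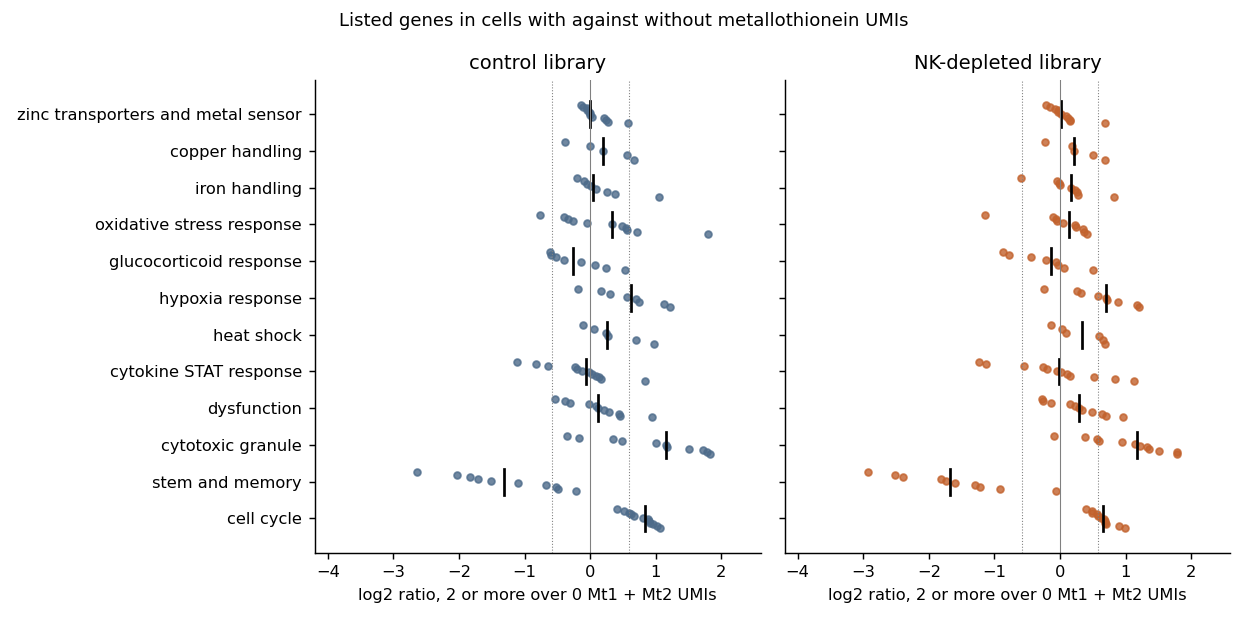
log2 ratio of each listed gene (points; x axis) between cells with 2 or more and with 0 Mt1 plus Mt2 UMIs after thinning, by list (y axis) for the control (left) and NK-depleted (right) libraries; genes have at least 10 CPM in 1 class, black bars are medians and dotted lines mark 1.5-fold. The cytotoxic granule medians lie at 1.16 and 1.18 and the stem and memory medians at -1.31 and -1.67.

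Markers of other cells were looked for beside the metallothioneins. The 7 dendritic cell markers all had UMIs in both libraries and summed to 290 CPM in control cells with an Mt1 or Mt2 UMI and 134 CPM in those without, and to 180 and 48.3 CPM in the depleted library. Cd74, the invariant chain gene that activated T cells can also express, was the highest of them, at 98.1 and 68.1 CPM over all cells. The 7 macrophage markers summed to 33.7 and 24.3 CPM, and 21.8 and 21.5 CPM, and the 4 neutrophil markers to 10.6 and 0.251 CPM, and 1.59 and 0.566 CPM. The 5 fibroblast markers summed to 1.18 and 0.363 CPM, and 4.84 and 1.83 CPM, and over all cells to 0.629 and 3.35 CPM in the 2 libraries, each of the 5 higher in the depleted one. Having a metallothionein UMI follows depth, so the sums are also given by the thinned classes, for cells with 2 or more against 0 metallothionein UMIs. The dendritic sum was then 178 against 157 CPM in control cells and 120 against 84.1 CPM in NK-depleted cells, and the macrophage sum 18.7 against 24.8 and 13.3 against 20.5 CPM. The neutrophil sum was 0.267 against 0.170 and 0.384 against 1.30 CPM. Neither class holds the 397 control and 965 NK-depleted cells with 1 metallothionein UMI, or the cells too shallow to thin. Over all cells of the control and the depleted library the dendritic sum was 185 and 115 CPM. The macrophage sum was 27.3 and 21.6 CPM there and the neutrophil sum 3.64 and 1.09 CPM. In the control library each of these sums is above that of both classes, so the cells left out had higher levels than either class. The fibroblast sum was 5.06 against 0.317 and 11.8 against 1.96 CPM, with Dcn, the decorin gene of fibroblasts, named after its values were seen, at 4.26 against 0.0340 and 5.47 against 0.0595 CPM. The part of these markers in the metallothionein levels was not tested on its own. Leaving out the cells that carry them also changes depth. Cells with and without such a UMI had medians of 14042.5 and 10686 UMIs in the control and of 15022 and 11298 in the depleted library. In the cells without any UMI of a macrophage, dendritic, neutrophil, fibroblast or B cell marker, Mt1 was at 53.2 CPM in 4747 control cells and 132 CPM in 5717 NK-depleted cells, and Mt2 at 8.37 and 26.6 CPM. By mitochondrial share, Mt1 was lowest in the lowest tertile of cells of both libraries, at 29.9 and 109 CPM, and highest in the middle tertile, at 70.1 and 183 CPM. The middle tertile was also the deepest. Median UMIs from the lowest to the highest tertile were 8931, 15522 and 11779 in the control library. In the depleted library they were 11666, 15538 and 10385, and the part of depth was not tested. Doublets were not called, and without the 8% of cells with most UMIs in each library the ratio of NK-depleted to control was 2.90 for Mt1 and 4.14 for Mt2.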

How the data were processed

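For each sample the authors deposited a matrix of raw UMI counts, genes by barcodes, whose header names Cell Ranger 6.1.2. Per the submitters' processing notes, mm10 and Seurat 4.0.6 were also used. Libraries followed the 10x 5' V2 protocol, per the labels. Mt1, Mt2 and all lists were chosen with earlier results of these data known. Levels are CPM of UMIs summed over the cells by the rule; intervals are exact (Poisson for CPM, Clopper-Pearson for shares, conditional binomial for ratios). With 1 library per group no test was run. Thinning drew 5000 UMIs per cell without replacement (seed 1). Correlations used log(1 + counts per 10000). Named genes were Mt1, Mt2, the 4 status genes, the 12 highest and 6 lowest correlated genes (receptor, immunoglobulin, mitochondrial, ribosomal protein, haemoglobin, sex-linked and unnamed genes left out), and up to 4 listed genes with the largest ratios; others were named for their role after their values were seen. Ero1a, of the hypoxia list, was not matched in the matrices. The scripts were tested on simulated data. Software was Python 3.11.15, numpy 2.4.6, scipy 1.17.1, pandas 2.3.3 and matplotlib 3.10.9, and R 4.3.3 with edgeR 4.0.16 for TMM and DESeq2 1.42.0 for median-of-ratios scaling. Results for 1 listed gene are not reported here.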

Additional observations from a re-analysis of the deposited data

Results flagged for a closer look

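The barcodes that the cell rule left out also held metallothionein UMIs. In the depleted library 1947 such barcodes, with a median of 1013 UMIs and a median mitochondrial share of 18.1%, had Mt1 at 136 CPM (124 to 149), close to the 148 CPM of the CD8 T cells. In the control library 965 such barcodes, with a median of 830 UMIs, had Mt1 at 87.6 CPM (73.9 to 103) against 54.7 CPM in the CD8 T cells. Mt2 in these barcodes was at 20.7 CPM in the control against 31.0 CPM in the depleted library. They were flagged because no comparison above uses them.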

How the results depend on the processing

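All values here are log2 ratios. Between the libraries they were 1.44 for Mt1 and 1.71 for Mt2 as reported, and 1.31 to 1.56 and 1.62 to 2.05 over 11 alternatives each. The ratios of Mt1 in cells with against without a status gene were (control, then depleted) 1.61 and 1.77 for Gzmc, 2.30 and 2.68 for Havcr2, -1.22 and -1.44 for Tcf7, and 1.46 and 1.39 for Mki67. None of the 22 library values and 140 status values reversed. The library values and the Mt1 status values outside the counting interval of the reported value follow; 31 of 70 Mt2 status values were also outside theirs. With TMM factors, the values were 1.53 for Mt1 between libraries. With median-of-ratios factors, the values were 1.54 for Mt1 between libraries. Over all deposited barcodes, the values were 1.71 for Gzmc in the depleted library and 2.11 and 2.53 for Havcr2 (control, depleted). Without cells with another cell type's marker, the values were 1.31 for Mt1 between libraries, 1.85 and 1.70 for Gzmc (control, depleted), 2.52 for Havcr2 in the control, -1.99 and -1.63 for Tcf7 (control, depleted) and 1.53 for Mki67 in the depleted library. Without the 8% of cells with most UMIs, the values were 1.54 for Mt1 between libraries, 2.05 for Mt2 between libraries, 1.47 and 1.56 for Gzmc (control, depleted), 2.51 for Havcr2 in the depleted library, -1.69 and -1.92 for Tcf7 (control, depleted) and 0.89 and 1.14 for Mki67 (control, depleted). Without cells with Mki67 or Top2a, the values were 1.44 and 1.495 for Gzmc (control, depleted), 2.15 and 2.34 for Havcr2 (control, depleted) and -2.16 and -1.63 for Tcf7 (control, depleted). With every cell thinned to 5000 UMIs, the values were 1.503 for Mt1 between libraries, 1.95 for Mt2 between libraries, 1.45 for Gzmc in the depleted library, 1.54 and 1.49 for Havcr2 (control, depleted), -2.19 and -2.12 for Tcf7 (control, depleted) and 1.26 and 1.09 for Mki67 (control, depleted). With status read from 2 UMIs, the values were 1.81 and 2.03 for Gzmc (control, depleted), 2.46 and 2.83 for Havcr2 (control, depleted), -1.36 and -1.71 for Tcf7 (control, depleted) and 1.65 and 1.53 for Mki67 (control, depleted). Without the barcodes that both libraries share (chosen after seeing the data), the values were 1.56 for Mt1 between libraries, 1.94 for Mt2 between libraries, 1.72 for Gzmc in the control, 2.41 for Havcr2 in the control, -1.49 for Tcf7 in the control and 1.32 for Mki67 in the control. The cause of these shifts was not tested. Of the 140 status values, 68 stayed inside their intervals. The scalings moved the median of all genes by less than 0.1. None of the 18 likeness values changed sign. No replicate could be left out with 1 library per group. No paired analysis was possible because each group has 1 library. Depth limits Mt2 in cells with Tcf7, where some combinations hold 2 or fewer control UMIs, and the number of mice is not known.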

Other observations

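Splitting the cells by Gzmb, the granzyme of most effector CD8 T cells, left few cells on the other side. The summed levels of Mt1 and Mt2 did not go the same way there, but the shares of cells with a UMI did. Cells without a Gzmb UMI were 825 in the control and 383 in the depleted library. Mt1 was at 12.9 CPM (10.6 to 15.5) and 17.9 CPM (13.4 to 23.4) in them, a ratio of 1.39 (0.981 to 1.95). Mt2 was at 5.31 CPM from 45 UMIs in the control and at 2.02 CPM from 6 UMIs in the depleted library, a ratio of 0.381 (0.133 to 0.896). The share of these cells with an Mt2 UMI was 1.33% (0.667 to 2.37) in the control and 1.57% (0.577 to 3.38) in the depleted library. Few cells therefore set these Mt2 levels. In cells with Gzmb both genes were higher in the depleted library, Mt1 at 58.3 and 152 CPM and Mt2 at 9.67 and 31.3 CPM. The library ratio of Mt3 changed direction with Mki67 as well. Mt3 was at 5.41 and 4.46 CPM (control, depleted) in cells without Mki67 and at 10.1 and 19.3 CPM in cells with it.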
